A study of Mus musculus with 26 samples.

Results

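The genes described here are 9 that hold blood stem cells in the bone marrow or bring them back to it: Icam1, Cxcr4, Itga4, Itga6, Itgb1, Itgb2, Itgal, Selplg and Cd44. They were taken by symbol from the deposited table of 23416 genes, in which 9 of 9 were found, and all 9 were among the 12116 genes expressed highly enough to be tested. Icam1 was selected on its RPKM, which was higher in double-mutant than in Ezh2 loss libraries, so that contrast is given below as a description with no test for any of the 9. RPKM, the deposited unit, counts reads per kilobase of a gene and divides by the total of its library.

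Haematopoietic stem cells (HSCs) were sorted by FACS from mouse bone marrow and profiled with Smart-Seq2, a full-length RNA-seq method for small amounts of RNA. The groups were JAK2V617F with Ezh2 loss (double mutant, n = 7 libraries), JAK2V617F alone (n = 7), Ezh2 loss alone (n = 7) and control without either (n = 5). JAK2V617F is the activating kinase mutation of myeloproliferative neoplasms, and Ezh2 is the enzyme by which Polycomb repressive complex 2 methylates histone H3. The double mutant's genotype label spells the mutation JAK2V17F, which was read as JAK2V617F. The sources used here do not give the alleles, the Cre driver, the part of Ezh2 removed or the age, sex and strain of the mice. The labels do not state that each library is a different mouse, so a p-value here speaks of the spread among libraries, which may be technical.

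Stem cells stay in the marrow because stromal cells secrete the chemokine CXCL12, which the receptor CXCR4 on the stem cell senses, and because integrins on the stem cell grip VCAM-1, fibronectin and laminin. Cells that return from blood first roll on endothelial selectins through PSGL-1, the product of Selplg, and through glycoforms of CD44. ICAM-1, the product of Icam1, is the ligand of the beta-2 integrins LFA-1 (Itgal with Itgb2) and Mac-1, and its gene is a classical target of NF-kB and of interferon signalling.

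RefSeq gives the 250 bases before the start of 5 of the 9 genes on GRCm38.p6, and those of Icam1 and Cxcr4 are shown because the genotype comparisons below turn on these 2 genes. The Icam1 window is at chr9:21015690-21015939 on the plus strand and the Cxcr4 window at chr1:128592300-128592549 on the minus strand, each written 5′ to 3′ on the gene's own strand. Capitals mark matches to GGANNNTCC, the core letters of a kappaB site, and to TTCNNNGAA, the letters of a STAT (GAS) site, both searched on both strands.
Icam1: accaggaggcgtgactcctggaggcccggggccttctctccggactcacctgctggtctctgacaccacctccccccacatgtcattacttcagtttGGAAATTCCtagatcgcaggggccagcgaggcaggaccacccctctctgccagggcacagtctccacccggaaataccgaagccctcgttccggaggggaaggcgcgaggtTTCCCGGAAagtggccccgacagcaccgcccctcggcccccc
Cxcr4: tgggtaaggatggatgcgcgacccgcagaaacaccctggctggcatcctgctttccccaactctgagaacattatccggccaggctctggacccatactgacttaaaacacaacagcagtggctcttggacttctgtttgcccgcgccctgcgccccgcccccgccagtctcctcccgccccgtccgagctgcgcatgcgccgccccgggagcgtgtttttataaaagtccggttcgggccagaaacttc
The Icam1 window held 1 match to each motif: GGAAATTCC beginning at position -153 and TTCCCGGAA at position -42, counted from the start. The windows of Cxcr4, Itga4, Itgb1 and Cd44 held neither. Of 32851 windows of the same length, 7.27% held the kappaB letters and 7.02% the GAS letters. A match describes the letters and is no evidence of binding. The windows of Icam1 and Cxcr4 held 15 and 19 CpG dinucleotides, against a median of 6 over all windows.

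Library titles put the running number either before the group code (number-first) or after it (number-last), and the labels do not say what this style stands for. Number-first titles made up 7 of 7 double-mutant, 2 of 7 JAK2V617F, 2 of 7 Ezh2 loss and 4 of 5 control libraries. Style moved with 1331 of 12116 genes (11% called; 931 higher and 400 lower in number-first libraries; median log2 difference over all genes 0.17), so every fold change below comes from a limma fit with group and style together unless another fit is named. No double-mutant library was number-last. The fitted difference of double mutants from the other groups therefore rests on the assumption that style acts alike in all groups. Number-last libraries of the other groups also set this difference, so it is not a comparison of number-first libraries alone. Library depth, read from the whole-read steps of the RPKM values, was 7.8 M to 29.2 M reads, with M standing for mega. Depth went with title style, at 14.25 M to 29.21 M reads in number-first and 7.82 M to 18.18 M in number-last libraries. All double mutants were thus among the deeper libraries, at 17.25 M or more. The part of depth in the style difference was not tested. None of the 15 HSC markers was at 0 throughout a group, with summed RPKM of 1710 to 2230 in double mutants, 1120 to 1740 in JAK2V617F, 1180 to 1890 in Ezh2 loss and 1160 to 1920 in control. Neutrophil markers (14 genes) were uneven, with median sums of 917 in double mutants, 531 in JAK2V617F, 16300 in Ezh2 loss and 417 in control, and highest sums of 52400, 18000, 38600 and 821 in the same order. Of these markers Prtn3 was above 0 in every library, with means of 292, 425, 531 and 347 RPKM in the same order. It thus made up much of the median sums in JAK2V617F and control. Elane, Mpo and Ctsg were at 0 throughout JAK2V617F, and Lcn2, Retnlg, Mmp9 and Ctsg throughout control. Erythroid markers (10 genes) had median sums of 22.1 in double mutants, 17.1 in JAK2V617F, 1430 in Ezh2 loss and 31.5 in control, and monocyte and macrophage markers (9 genes in the table) 124, 17.4, 33.2 and 13.4 in the same order. The part of these cells in the results was not tested beyond a neutrophil covariate. Ezh2 RNA overlapped between all groups, at 6.71 to 31.4 RPKM in double mutants, 20.4 to 40.2 in JAK2V617F, 5.15 to 31.4 in Ezh2 loss and 8.11 to 33.2 in control, and the gene-level value cannot show loss of an exon. Jak2 averaged 11.3 ± 7.93 RPKM in double mutants, 12.8 ± 5.71 in JAK2V617F, 17.8 ± 9.37 in Ezh2 loss and 16.2 ± 4.71 in control.

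Icam1 stood highest in double-mutant HSCs. Its lowest, median and highest levels were 32.3, 59.5 and 82.2 RPKM in double mutants, 12.1, 21.3 and 52.8 in JAK2V617F, and 0.27, 14.3 and 35.2 in Ezh2 loss. The 5 control libraries had 11.5, 37.7, 21.8, 36.9 and 15.8 RPKM. Of the 7 double-mutant libraries 6 lay above every control and every Ezh2 loss library, and the seventh, at 32.3, lay within both ranges. The group means were 60.1 ± 17 in double mutants (SD, n = 7), 29.7 ± 15.7 in JAK2V617F (n = 7), 16.8 ± 14.1 in Ezh2 loss (n = 7) and 24.7 ± 12 in control (n = 5). In the order of means, the step between double mutants and JAK2V617F was larger than the larger SD of its pair, and the other steps were not. These levels include the double-mutant and Ezh2 loss values that chose Icam1, so their separation is a description. They also mix title styles, and with style fitted the step over JAK2V617F was 0.35 on the log2 scale (SE 0.67). In bulk RNA, fewer cells of a type and less RNA per cell cannot be told apart.

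The double mutant minus Ezh2 loss difference of Icam1, the one that chose it, depended on how style was treated. It was 2.51 on the log2(RPKM + 1) scale (SE 0.58) with no style term, 1.77 (SE 0.67) with style fitted and 1.11 (SE 0.45) in number-first libraries alone. The 2 number-first Ezh2 loss libraries had 20.2 and 33.9 RPKM, against a mean of 12.7 ± 14.2 in the 5 number-last ones. Over all 12116 genes, 85 were called in this contrast without the style term (0.702%) and 0 with style fitted (0%), and no call is read for the 9 genes. With the level of 6 neutrophil genes as a covariate beside style, the difference was 1.35 (SE 0.68).

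Against control, Icam1 in double mutants was higher by 1.12 (SE 0.61, 95% interval -0.12 to 2.37, adjusted p = 0.869 in limma with Benjamini-Hochberg adjustment over 12116 genes), which did not pass. When number-first libraries were used alone, Icam1 averaged 60.1 ± 17 RPKM in double mutants (n = 7) and 27 ± 12.6 in control (n = 4). The log2 difference was then 1.21 (SE 0.35, limma adjusted p = 0.709). Of the contrasts given here, all but JAK2V617F minus control share double-mutant or Ezh2 loss libraries with the contrast that chose Icam1, so they are not independent of that choice. The difference from JAK2V617F was 0.35 (SE 0.67, limma adjusted p = 0.944) and was -0.08 when JAK2V617F replicate 1, at 20.5 RPKM, was left out, 0.83 in number-first libraries and 1.1 with no style term. The interaction, taken as the excess of the double mutant over the sum of the single-mutant differences, was 1 (SE 1.04, limma adjusted p = 0.923).

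The single mutants stood on opposite sides of control for Icam1, at 0.77 for JAK2V617F (SE 0.66, limma adjusted p = 0.999) and -0.65 for Ezh2 loss (SE 0.66, limma adjusted p = 0.952), and neither passed. The difference of Ezh2 loss turned to 0.10 in number-first libraries and to 0.14 with the neutrophil covariate, and was -1.18 with no style term. JAK2V617F and Ezh2 loss have the same balance of title styles, and the fitted Icam1 difference, JAK2V617F minus Ezh2 loss, was 1.42 (SE 0.55). It is given as a description, since the low Ezh2 loss values were part of what chose Icam1. The 2 lowest Icam1 values of the series, 0.27 and 0.672 RPKM, were in Ezh2 loss replicates 1 and 6. Without replicate 1 that difference was 0.95, with the neutrophil covariate 0.92, and among the 2 number-first libraries of each group 0.28. Those 2 libraries had a mean log2(RPKM + 1) of the 6 neutrophil genes of 6.69 and 7.67, while Ezh2 loss replicate 4 had 6.39 with Icam1 at 33.9 RPKM. Among double mutants the 2 lowest Icam1 values, 32.3 and 46.4 RPKM, were in the libraries with the highest neutrophil level, 7.94 and 9.16. In JAK2V617F the library with the highest neutrophil level, replicate 3 at 7.23, had a high Icam1 value for its group, 49.6 RPKM.

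**Figure D1:**
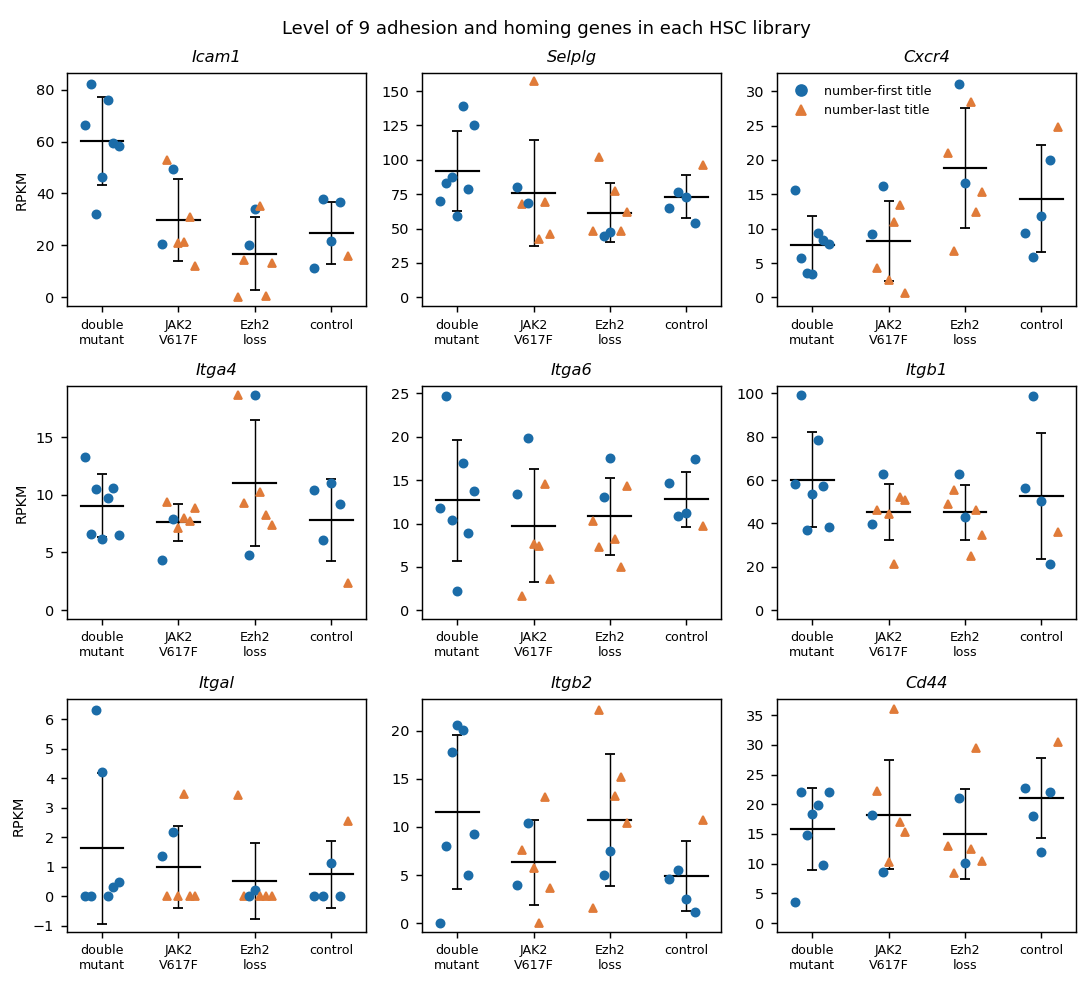
Level of each of the 9 genes (RPKM, vertical axes) in every library, by genotype. Circles are number-first and triangles number-last libraries, bars are the group mean and whiskers 1 SD (n = 7, 7, 7 and 5). Icam1 is highest in double mutants (32.3 to 82.2), values that helped choose it, and Itgal is at 0 in 15 of 26 libraries.

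Itgal, the alpha chain of the ICAM-1 receptor LFA-1, was at 0 in 15 of 26 libraries, where fewer than 3 reads would mean less than 0.0156 RPKM in the deepest and 0.0584 RPKM in the shallowest library. Its double-mutant values were 0, 0, 6.32, 4.21, 0, 0.315 and 0.477 RPKM, and its control values 0, 0, 1.12, 0 and 2.56. In JAK2V617F it was above 0 in 3 libraries, at 1.36, 2.17 and 3.46, and in Ezh2 loss in 2, at 3.44 and 0.215. The groups overlapped throughout, and the double mutant minus control difference was 0.31 (SE 0.57, limma adjusted p = 0.986). The 2 highest values, 6.32 and 4.21 RPKM, were in double-mutant replicates 3 and 4, the libraries with the highest neutrophil level.

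Itgb2, the beta-2 chain that Itgal and the Mac-1 alpha chain need, had 0, 9.28 and 20.6 RPKM as lowest, median and highest in double mutants, 0.0216, 5.76 and 13.1 in JAK2V617F, and 1.6, 10.4 and 22.2 in Ezh2 loss. Control had 4.57, 5.52, 2.55, 1.16 and 10.7. Beta-2 levels thus ran higher in the medians of both Ezh2-deficient groups, with wide overlap and title styles mixed. Number-first means were 11.5 RPKM in double mutants, 7.17 in JAK2V617F (n = 2), 6.29 in Ezh2 loss (n = 2) and 3.45 in control. Number-last means were 6.02 in JAK2V617F and 12.5 in Ezh2 loss (n = 5 each), beside 10.7 in the 1 control. Ezh2 loss therefore did not exceed JAK2V617F among number-first libraries. The differences from control were 0.91 in double mutants (SE 0.71, limma adjusted p = 0.93) and 0.76 in Ezh2 loss (limma adjusted p = 0.952). Double-mutant replicates 3, 4 and 5 reached 17.8, 20.6 and 20.1 RPKM. Their neutrophil levels were 7.94, 9.16 and 0.38, so the third was as high with neutrophil genes near 0. Neutrophils carry beta-2 integrins, and the part of neutrophil RNA in these values was not tested.

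**Figure D2:**
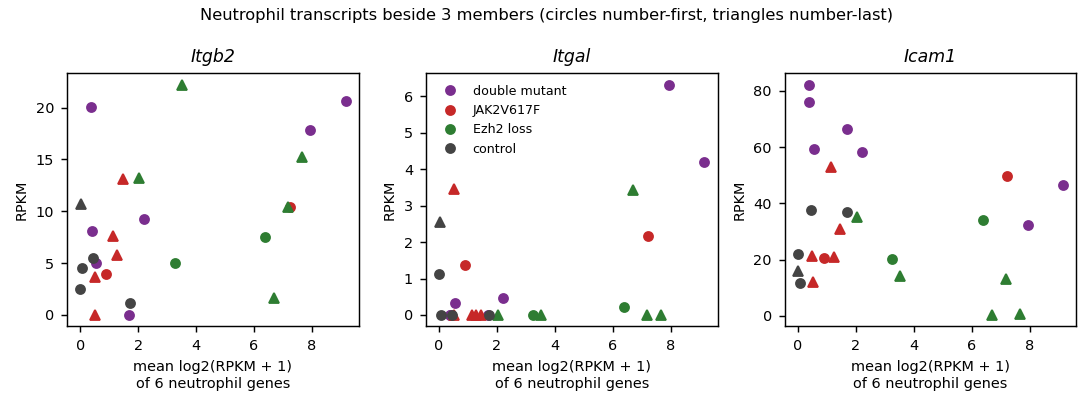
Itgb2, Itgal and Icam1 (RPKM, vertical axes) against the mean log2(RPKM + 1) of 6 neutrophil genes (horizontal axes) in each library. Circles are number-first, triangles number-last and colours genotypes. Neutrophil levels above 6 occur in 2 double-mutant, 1 JAK2V617F and 4 Ezh2 loss libraries, and control libraries lie between 0 and 1.71.

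Cxcr4 had the opposite order to Icam1, with its highest levels in Ezh2 loss. Its lowest, median and highest levels were 3.44, 7.8 and 15.6 RPKM in double mutants, 0.652, 9.19 and 16.2 in JAK2V617F, and 6.7, 16.6 and 31.1 in Ezh2 loss, against 9.35, 5.86, 11.8, 20 and 24.8 in the 5 controls. All groups overlapped. The means were 7.67 ± 4.18 in double mutants, 8.20 ± 5.87 in JAK2V617F, 18.8 ± 8.71 in Ezh2 loss (SD, n = 7 each) and 14.4 ± 7.81 in control (n = 5). No step in that order was larger than the larger SD of its pair.

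Both groups that carry JAK2V617F were below control for Cxcr4, by differences that did not pass: -0.90 in double mutants (SE 0.53, limma adjusted p = 0.891) and -0.71 in JAK2V617F (SE 0.57, limma adjusted p = 0.999). Ezh2 loss was at 0.63 (SE 0.57, limma adjusted p = 0.938). Restricted to number-first libraries, the double mutant minus control difference was -0.58 (limma adjusted p = 0.862), with 7.67 RPKM in double mutants against 11.8 in control. The single control library with a number-last title, replicate 5, had the highest control value, 24.8, and the difference was also -0.58 without it. Its absence moved the JAK2V617F minus control difference to -0.08, and number-first libraries alone gave 0.17.

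Between the style-balanced groups, Cxcr4 was 1.34 lower in JAK2V617F than in Ezh2 loss on the log2 scale (difference -1.34, SE 0.47, limma adjusted p = 0.428). In number-first libraries alone this JAK2V617F minus Ezh2 loss difference was -0.84 (SE 0.71). Its confidence interval there, -2.33 to 0.64, included no difference. Over the settings it ran between -1.58 and -0.84. As a description, the double mutant minus Ezh2 loss difference was -1.52 with style fitted, -1.19 with no style term and -1.59 in number-first libraries alone. That of Cxcr4 therefore moved less with style than that of Icam1 did.

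**Figure D3:**
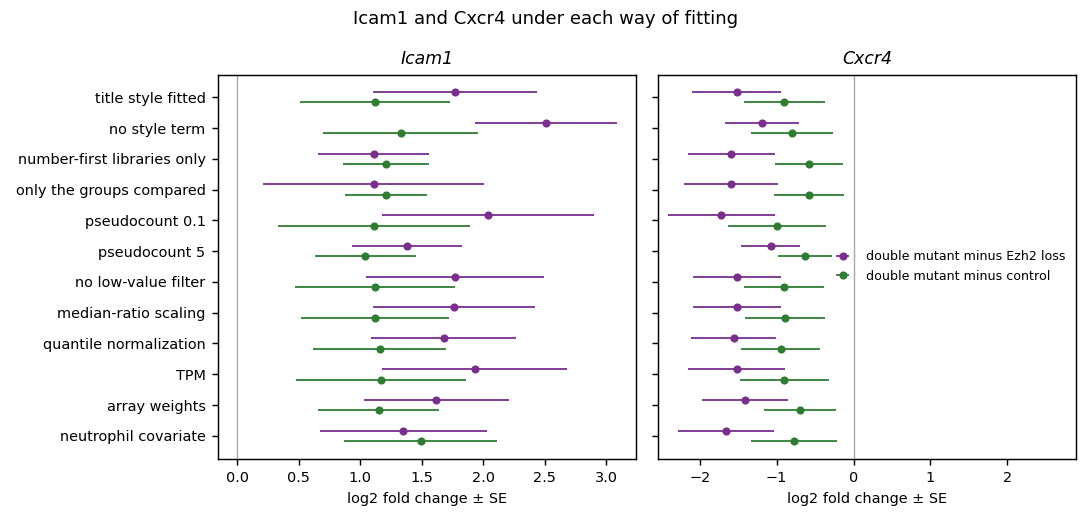
Log2 fold change ± SE (horizontal axes) of Icam1 and Cxcr4 for the double mutant against Ezh2 loss (purple) and against control (green), one row per way of fitting. Icam1 against Ezh2 loss runs between 1.11 and 2.51, and Icam1 against control between 1.04 and 1.49.

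For the integrin chains that bind VCAM-1, fibronectin and laminin, the group means lay within 1 SD of their neighbours. Itga4, the alpha chain of VLA-4, averaged 9.05 ± 2.69 RPKM in double mutants, 7.63 ± 1.60 in JAK2V617F, 11 ± 5.44 in Ezh2 loss and 7.82 ± 3.58 in control. Its highest values, both 18.6 RPKM, were in 1 number-last and 1 number-first Ezh2 loss library. The differences from control were 0.25 in double mutants (95% interval -0.56 to 1.05), 0.16 in JAK2V617F (-0.72 to 1.03) and 0.54 in Ezh2 loss (-0.33 to 1.41), and none of these intervals excludes a log2 change of 1.

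Itga6, the alpha chain of the laminin receptor, averaged 12.7 ± 6.98 RPKM in double mutants, 9.75 ± 6.49 in JAK2V617F, 10.8 ± 4.41 in Ezh2 loss and 12.8 ± 3.16 in control. By title style its level was 13.8 ± 5.22 RPKM in the 15 number-first and 8.17 ± 4.01 in the 11 number-last libraries. Its style difference was 0.92 (SE 0.40, limma adjusted p = 0.156), and its difference from control was -0.38 in double mutants (SE 0.46). Icam1 had a style difference of 1.04 (SE 0.54, limma adjusted p = 0.242). In all, 0 of the 9 genes were called for style, where 11% of all genes were.

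Itgb1, the beta-1 chain shared by both of these receptors, was among the 3 most abundant of the 9 genes in every group. Its lowest, median and highest levels were 37, 57.1 and 99.4 RPKM in double mutants, 21.2, 46.2 and 63 in JAK2V617F, and 25.1, 46.2 and 63 in Ezh2 loss. Control had 56.4, 98.9, 50.5, 21.3 and 36.1. The control range alone spanned nearly all other values. Differences from control were 0.22 in double mutants (SE 0.32), 0.08 in JAK2V617F (SE 0.35) and 0.08 in Ezh2 loss (SE 0.35).

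Selplg, which encodes the selectin ligand PSGL-1, was the most abundant of the 9 genes in every group. Its lowest, median and highest levels were 58.9, 83.3 and 139 RPKM in double mutants, 42.3, 68.9 and 157 in JAK2V617F, and 44.7, 48.2 and 102 in Ezh2 loss, against 64.8, 76.9, 73, 54.2 and 96.5 in control. Double mutants ran highest and Ezh2 loss lowest, as for Icam1, with overlapping groups. The double mutant minus JAK2V617F difference was 0.52 (SE 0.30, limma adjusted p = 0.715), and the double mutant minus control difference 0.34 (SE 0.28, limma adjusted p = 0.94). The interaction was 0.93 (SE 0.48, limma adjusted p = 0.826). As a description, the double mutant minus Ezh2 loss difference was 0.76 with style fitted, 0.58 without and 0.92 in number-first libraries alone, where the 2 Ezh2 loss libraries had 44.7 and 47.5 RPKM.

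Cd44, the hyaluronan receptor, averaged 15.8 ± 6.87 RPKM in double mutants, 18.3 ± 9.15 in JAK2V617F, 15 ± 7.6 in Ezh2 loss (SD, n = 7 each) and 21.1 ± 6.74 in control (n = 5). It was the 1 gene of the 9 with a negative fitted difference from control in every mutant group, at -0.44 in double mutants, -0.43 in JAK2V617F and -0.69 in Ezh2 loss. None passed (SE 0.42 to 0.45, limma adjusted p = 0.958, 0.999 and 0.907 in that order). The groups overlapped, with levels of 3.63 to 22 RPKM in double mutants, 8.59 to 36.1 in JAK2V617F, 8.4 to 29.5 in Ezh2 loss and 12 to 30.4 in control.

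**Figure D4:**
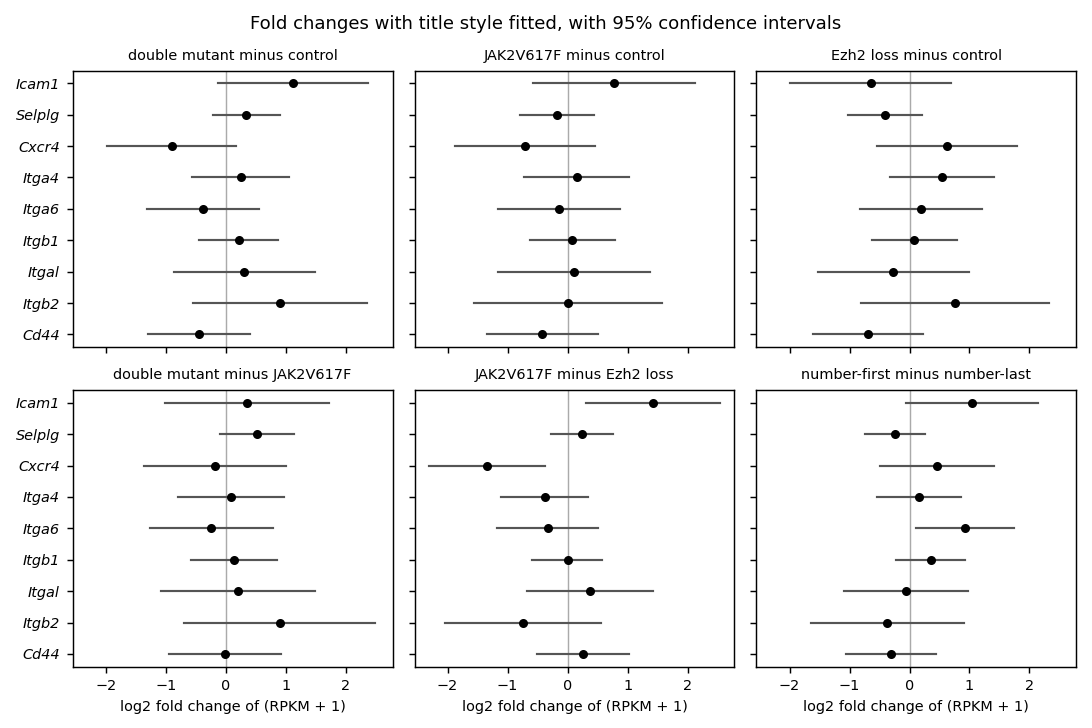
Log2 fold change of RPKM + 1 (horizontal axes) with 95% confidence intervals for the 9 genes in 5 genotype contrasts and in the style contrast, all with title style fitted. All intervals are before adjustment. Those of Cxcr4 in JAK2V617F minus Ezh2 loss and of Itga6 in the style contrast lie to one side of 0. Icam1 in JAK2V617F minus Ezh2 loss does too, but uses the Ezh2 loss values that helped choose it.

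Outside double mutant minus Ezh2 loss, where no call is read for them, 0 of the 9 genes were called in each genotype contrast. The share called over all 12116 genes was 0.00825% for double mutant minus control (1 gene, Gm2a, named for its call), 0% for JAK2V617F minus control, 0% for Ezh2 loss minus control, 0.033% for double mutant minus JAK2V617F (4 genes, Pde2a, Esr1, Dynlt1b and Rpl39), 0.099% for JAK2V617F minus Ezh2 loss and 0% for the interaction. So few genes were called in any of them that 0 of 9 says little about these 9. At an unadjusted limma p under 0.05, the contrasts with 0 calls held 501 genes (JAK2V617F minus control), 736 (Ezh2 loss minus control), 950 (double mutant minus Ezh2 loss) and 738 (interaction). In JAK2V617F minus Ezh2 loss 1002 genes (8.27%) were below that value, among them Cxcr4 and Icam1, of which Icam1 was chosen partly on the Ezh2 loss values. Of the 9 genes, 0 were below it in each contrast with control. The median difference of the 9 genes from control was 0.25 in double mutants, 0.01 in JAK2V617F and 0.08 in Ezh2 loss, beside -0.01, -0.02 and -0.03 over all genes. Over the 27 neighbouring pairs in the order of group means, 26 lay within the larger SD of the pair, and the other was Icam1 in double mutants over JAK2V617F, which rests on double-mutant values that chose the gene.

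The wider machinery of homing was read from 10 lists that hold 147 tested genes, 138 of them beyond the 9. Of the 147, 0 were called in any genotype contrast other than double mutant minus Ezh2 loss, where no call is read for the 9. In double mutant minus control, 10 of 147 (6.8%) had an unadjusted limma p under 0.05, beside 6.17% of all genes. The largest list median was that of NF-kB target genes, at 0.44, with 14 of 19 higher in double mutants and 0 under an unadjusted p of 0.05. Medians of the other lists were 0.31 for hyaluronan and matrix binding (6 of 8 higher), 0.28 for other niche and egress receptors (9 of 11), 0.27 for selectins, sialomucins and their glycosylation (13 of 18), 0.22 for integrin subunits (10 of 15), 0.22 for proteases of mobilisation (8 of 12), 0.19 for integrin activation and adaptors (13 of 21), 0.16 for tetraspanins (10 of 13), -0.05 for immunoglobulin-family adhesion molecules (7 of 15) and -0.16 for the chemokine axis (7 of 15). The median over all genes was -0.01. For style, the NF-kB list had a median of 0.53, with 15 of 19 higher in number-first libraries, beside 0.17 over all genes. Its value in double mutants, all number-first, therefore also rests on the style term.

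None of the genes named from these lists passed in double mutant minus control. In the selectin list B4galt1, a galactosyltransferase that builds the glycans selectins bind, averaged 46.7 ± 28.9 RPKM in double mutants and 30.3 ± 37.2 in control, and the difference was 1.51 with style fitted (SE 0.42, limma adjusted p = 0.483). B4galt1 was also 2.54 lower in number-first than in number-last libraries (difference -2.54, limma adjusted p = 1.04e-05), so its genotype value rests on the style term. Fut7, the fucosyltransferase that completes the selectin-binding glycan on PSGL-1, averaged 11.1 ± 3.55 RPKM in double mutants and 3.5 ± 3.2 in control (1.54, SE 0.70, limma adjusted p = 0.77).

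Rac1, a GTPase that drives migration and adhesion downstream of CXCR4 and integrins, averaged 131 ± 105 RPKM in double mutants and 222 ± 77.2 in control (-1.33, SE 0.38, limma adjusted p = 0.483). It was called for style, 1.16 higher in number-first libraries (limma adjusted p = 0.0221). Itgb7, the partner of Itga4 in the receptor for MAdCAM-1, averaged 13.9 ± 7.35 RPKM in double mutants and 5.18 ± 4.17 in control (1.37, SE 0.66, limma adjusted p = 0.806). Alcam, an immunoglobulin-family adhesion molecule that binds CD6 and itself, averaged 15.1 ± 7.39 RPKM in double mutants and 5.99 ± 2.76 in control (1.14, SE 0.48, limma adjusted p = 0.722). Kit, the receptor of stem cell factor from the niche, averaged 106 ± 34.6 RPKM in double mutants and 75.8 ± 12.2 in control (0.49, limma adjusted p = 0.722). Dpp4, the peptidase that inactivates CXCL12, averaged 13 ± 3.36 RPKM in double mutants and 7.82 ± 4.96 in control (1.12, limma adjusted p = 0.748).

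The other genes named by the same rule were as far from passing. Positive differences were those of Arrb2 (0.91), Itga3 (0.48), Crkl (1.17), Sdc4 (0.98), Spp1 (1.22), Cd53 (1.65) and Gpr56 (0.30), and negative ones those of Ptk2 (-1.30), Pvr (-1.07), Cd63 (-0.34) and Ier3 (-0.49). Mmp9, a protease released by neutrophils, and Cxcl10, an interferon-induced chemokine, were at 0 in many libraries. Mmp9 was above 0 in 2 of 7 double-mutant libraries (median 0, highest 33.1 RPKM) and was listed at 0 in all 5 control libraries. It was also above 0 in 5 of 7 Ezh2 loss libraries (highest 42.7 RPKM) and in 1 of 7 JAK2V617F libraries (highest 3.92 RPKM). Cxcl10 was above 0 in 3 of 7 double-mutant libraries (median 0, highest 43.3 RPKM) and was listed at 0 in all 5 control libraries. It was also above 0 in 2 of 7 Ezh2 loss libraries (highest 56.6 RPKM) and in 1 of 7 JAK2V617F libraries (highest 44.2 RPKM).

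For style, 22 of the 147 list genes were called, 16 higher and 6 lower in number-first libraries. They included the G protein subunit Gnai2, through which CXCR4 signals (1.66, limma adjusted p = 1.36e-07), the GTPase Rap1b, which activates integrins (1.23, limma adjusted p = 1.25e-06), and its effector Apbb1ip (2.26, limma adjusted p = 0.000651). Adam10, a sheddase (-1.33, limma adjusted p = 9.2e-06), and Cd34, a sialomucin (-1.02, limma adjusted p = 0.0081), were among those lower in number-first libraries. These 5 genes were chosen after their values were seen.

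No correlation across libraries between the chains of a receptor, or between Icam1 and its receptor chain, passed after adjustment. Genotypes were pooled within each style and genotype differences were not taken out. Within number-first libraries (n = 15), Itgal and Itgb2 had r = 0.496 (permutation p = 0.0616, adjusted over 8 relations 0.246) and rho = 0.399 (permutation p = 0.14, adjusted 0.561), and r was 0.148 without the 2 libraries farthest from the median of Itgal. Within number-last libraries (n = 11) the same pair had r = -0.69 (permutation p = 0.0193, adjusted 0.154) and rho = -0.578 (permutation p = 0.0685, adjusted 0.548). Without the 2 farthest r was 0.0361, so that relation rests on those 2 libraries. Itgal was at 0 in 8 of these 11 libraries, so the r that remains says little. Itga4 with Itgb1 had r = -0.196 in number-first and 0.187 in number-last libraries, and Itga6 with Itgb1 0.0612 and -0.177. Icam1 with Itgb2 had r = 0.172 in number-first and 0.135 in number-last libraries. The adjusted permutation p of these 6 values lay between 0.805 and 0.813.

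The genes whose level followed Icam1 most closely from library to library, after group and style were taken out, were Trit1 (r = 0.812), Rela (0.789), Ikbke (0.778), H2-Ke6 (0.766) and Arf3 (0.745), over 26 libraries. Rela encodes the p65 subunit of NF-kB and Ikbke a kinase of the NF-kB and interferon pathways. For Cxcr4 they were Sms (0.766), Drap1 (0.721) and Nktr (0.696). For Selplg they were Bin2 (0.747), Emc10 (0.734) and Fpgs (0.721), and for Cd44 Armc5 (0.709), Snora70 (0.682) and Mccc2 (0.673). Among integrin chains the leading genes were Tbc1d7 for Itga4 (0.763), Srrt for Itga6 (0.761), Atg13 for Itgb2 (0.785) and Mir3068 for Itgal (0.805). None of these leading genes was another of the 9. These are the highest of 12116 correlations per gene over libraries that share preparation and depth differences, and they describe these libraries only.

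On GRCm38, GENCODE M21 lists all 9 as protein-coding genes, with Icam1 at chr9:21015985-21028817, Cxcr4 at chr1:128588199-128592293, Selplg at chr5:113818536-113832644 and Itgb2 at chr10:77530252-77565708. Itga4 at chr2:79255426-79333123, Itga6 at chr2:71745616-71858416 and Cd44 at chr2:102811141-102901665 share a chromosome, and Itgb1 lies at chr8:128685654-128733200 and Itgal at chr7:127296260-127335138. The ends of Icam1 and Itga4 overlap genes on the opposite strand, Gm47079 and Cerkl. Cd44 overlaps a small nuclear RNA gene on the opposite strand, and Itga6 overlaps non-coding genes and a processed pseudogene, of which Gm13662 and Gm13663 are on its own strand. The sources used here do not say whether counting used strand, so reads in opposite-strand overlaps cannot be told apart, and same-strand overlaps would not be separated by strand in any case.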

How the data were processed

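RNA of 26 sorted HSC libraries was measured by Smart-Seq2. The authors deposited 1 table of RPKM values per gene and library. The tools named in the submitters' processing notes are STAR (2.4.2a), Subread (1.5.0) and SAMtools (0.1.19), and the genome is mm10/GRCm38. Their settings, the annotation and the read totals were not given in the sources used here. Depth was therefore estimated from whole-read steps (2528 genes, tolerance 0.01), and RPKM were not turned back into counts. Groups came from the genotype labels, and 0 columns were left unused. A gene was tested if at least 5 libraries had 1 RPKM or more (12116 genes). The log2(RPKM + 1) values, which understate changes of low genes, were modelled in limma (3.58.1, R 4.3.3) with 4 group means and title style, using eBayes with trend and robust, and the procedure was tested on simulated data. Tests were two-sided with Benjamini-Hochberg adjustment over all tested genes and a threshold of 0.05. Style is in the model because earlier results of these data showed it to move many genes. The 9 genes, the lists, the tests and the naming rule were chosen with earlier results of these data known. The rule names the 9 genes, Ezh2 and Jak2, and from each list the genes that pass in a genotype contrast or, where none does, the 2 with the smallest p in double mutant minus control. It also names, by correlation of residuals, the 5 genes most like Icam1 and the 3 most like each other member, the first of which is printed for integrin chains; 1 gene that meets this rule is not reported here. Correlations used 100000 permutations. Alternatives covered style, the libraries fitted, pseudocount, filter, scaling, weights, a neutrophil covariate (mean of Retnlg, Mmp8, Lcn2, Ltf, Ngp and Camp) and leaving out each library.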

Additional observations from a re-analysis of the deposited data

Results flagged for a closer look

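Among the 36 tests of a gene in a group for 1 library far from the rest, 2 stood out. Chance gives about 1 in 20 for normally distributed values, a rate that need not hold for the untransformed RPKM used here. Itgal was at 3.44 RPKM in Ezh2 loss replicate 1, while the other 6 libraries of the group lay between 0 and 0.215. As 5 of the 7 were at 0, any clear signal would stand out. Itgal reached as much in other groups, up to 3.46 RPKM in JAK2V617F and 6.32 in double mutants. Selplg was at 157 RPKM in JAK2V617F replicate 4, while the other 6 lay between 42.3 and 80. Without that library the JAK2V617F minus Ezh2 loss difference of Selplg was 0.05 on the log2 scale, against 0.24 with it, and neither value passed.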

How the results depend on the processing

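Outside double mutant minus Ezh2 loss, 2304 of 2304 recomputed differences of the 9 genes stayed on the side of the threshold given above. Of them, 139 changed sign, and in 0 of those did both values exceed their SE. Icam1 in double mutant minus control ran between 1.04 and 1.49 over the settings and between 0.82 (without control replicate 1) and 1.26 with 1 library left out. Cxcr4 in that contrast ran between -1 and -0.58, and between -1.19 and -0.58 with 1 library left out. Icam1 in JAK2V617F minus Ezh2 loss ran between 0.28 in number-first libraries and 2.4 in the replicate block.

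Without the style term, counts of genes called over all tested genes were 274 in double mutant minus JAK2V617F (4 with it), 85 in double mutant minus Ezh2 loss (0 with it), 215 in the interaction (0 with it), 1 in JAK2V617F minus control (0 with it) and 0 in double mutant minus control (1 with it). In number-first libraries alone the counts were 0 for double mutant minus control, 0 for double mutant minus JAK2V617F, 8 for double mutant minus Ezh2 loss and 0 for JAK2V617F minus Ezh2 loss (12 in all libraries). With only the groups compared they were 2 for Ezh2 loss minus control (0 with all groups) and 0 for double mutant minus control. With a pseudocount of 0.1, 1 gene was called in JAK2V617F minus control. Without the low-value filter they were 2 for double mutant minus control, 1 for double mutant minus Ezh2 loss, 7 for JAK2V617F minus Ezh2 loss and 1 for the interaction. For double mutant minus control, quantile normalization gave 2, TPM 4, array weights 6 and the neutrophil covariate 0. For double mutant minus JAK2V617F, TPM gave 7 and array weights 12, and for double mutant minus Ezh2 loss the covariate gave 3. With 1 library left out the counts ran between 0 and 1 for JAK2V617F minus control, 0 and 1 for Ezh2 loss minus control, 0 and 6 for double mutant minus control, 3 and 8 for double mutant minus JAK2V617F, 0 and 1 for double mutant minus Ezh2 loss, 9 and 17 for JAK2V617F minus Ezh2 loss, 0 and 1 for the interaction, and 988 and 1375 for style (1331 with all). The causes were not tested, and several of these settings also change the number of libraries or genes.

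Number-last JAK2V617F and Ezh2 loss titles share 4 numbers. Same-numbered libraries were not seen to deviate together (r between -0.06 and 0.02). With 4 shared numbers this cannot show that the numbers pair nothing. The replicate block called 1 gene in JAK2V617F minus Ezh2 loss. Only number 3 correlated best with its own number. At a depth of 7.8 M to 29.2 M reads, values at 0, as for Itgal in 15 libraries, are not evidence of absence.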
